A study of Chlamydomonas reinhardtii with 45 samples.

Results

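The first transcripts to change after salt were sought by comparing Chlamydomonas reinhardtii cells taken 15 min after addition of 100 mM NaCl with untreated cells taken at 0 h, the start of the time course. Both groups were wild-type, vegetative, haploid cells of strain CC-4533, a unicellular green alga, grown in acetate medium under low continuous light and carrying no transgene or mutation in the labels. The comparison used 8 of the 45 RNA-seq libraries of the series, 3 at 15 min of NaCl and 5 at control 0 h. The rest of the series followed NaCl and 300 mM mannitol, a sugar alcohol that lowers the water potential without adding ions, at 15, 30 and 60 min and 4, 6 and 24 h (3 libraries each), with 4 untreated libraries at 24 h. The study took the successive samples of a treatment from the same flask, so times within a treatment are not separate cultures. Levels are TPM, a length-normalised share of the transcripts in a library, which sum to the same total in every library, and 13651 of 19526 transcripts passed the filter of 1 TPM or more in 3 or more of the 45 libraries.

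Salt places a pair of stresses on a cell at once, loss of water and entry of sodium. Chlamydomonas is known to answer osmotic stress by making glycerol as its main compatible solute, by slowing the contractile vacuoles that pump out water, and by pausing growth. In yeast and in land plants the transcriptional part of such a response is driven within minutes by protein kinase cascades and by DNA-binding factors, among them members of the AP2 family in plants. Of the transcripts described here, most carry only a gene model identifier (Cre or g followed by digits) in the sources used, and no role is given for those.

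The 8 libraries were not equally alike. Pairwise Pearson correlations of log2(TPM + 1) across transcripts, which are not independent replicates, were 0.965 to 0.984 within the NaCl group and 0.940 to 0.984 within the controls. A single transcript, g15293.t1, held between 6.84% and 36.0% of the TPM at 15 min of NaCl and between 13.2% and 37.2% at control 0 h. The median-ratio factors, which rescale each library by the median ratio of its transcripts to their geometric mean over the series, were 1.00 to 1.06 for the NaCl libraries and 1.09 to 1.69 for the controls, with control replicates 1 and 3 at 1.62 and 1.69. By library number, NaCl replicate 3 and control replicate 5 (numbers 50 and 49) stood apart from the other 6 (17 to 42). The labels name no batch. Depth is unknown, because TPM keep none.

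After 15 min, 43 transcripts were called higher in NaCl (0.315% of those tested) and 11 lower (0.0806%). A transcript was called where limma's adjusted p lay under 0.01 and the groups differed by more than 2 on the log2(TPM + 1) scale. With median-ratio scaling 67 were higher (0.491%) and 5 lower (0.0366%). All 43 higher calls were among the 67, and the 5 lower calls were among the 11. The median log2 fold change over all transcripts was -0.31 with the TPM as deposited and -0.03 after scaling, so the values of single transcripts below are best read against that offset. Irrespective of size, 184 transcripts had an adjusted p under 0.01 and were higher (1.35%) and 159 lower (1.16%), against 489 higher (3.58%) and 83 lower (0.608%) after scaling. These counts of any size moved with single libraries, between 89 and 298 higher and between 39 and 789 lower with 1 left out, the highest of both without control replicate 5. In the 6 libraries with numbers under 49 alone, 47 transcripts were called higher, 39 of them among the 43, and 15 lower. With the library series as a block, 43 were higher and 42 of the 43 remained. With each of the 8 libraries left out in turn, 32 of the 43 and 7 of the 11 were called every time.

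**Figure D1:**
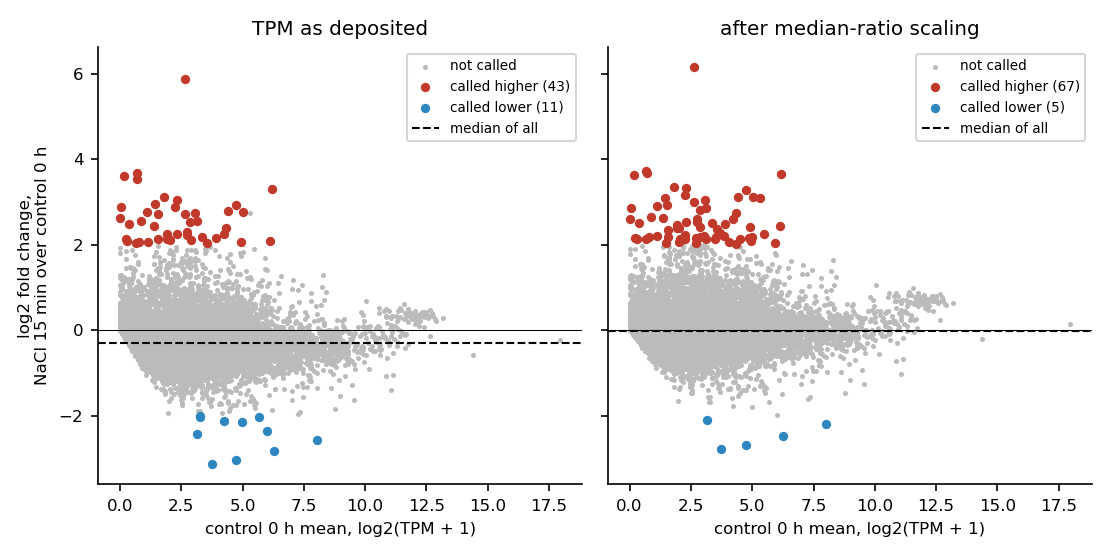
Log2 fold change of 13651 transcripts (NaCl 15 min over control 0 h, y axis) against their mean level at control 0 h (log2(TPM + 1), x axis), with the TPM as deposited (left) and after median-ratio scaling (right). Red points are called higher (43 and 67), blue points called lower (11 and 5), and the dashed line is the median of all transcripts (-0.31 and -0.03). The red points lie at control levels from 0 TPM up to 71.8 TPM.

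The risers spanned a wide range of starting levels. Of the 43, 11 averaged under 1 TPM at control 0 h, 22 between 1 and 10 TPM and 10 at 10 TPM or more, and 34 reached a mean of 10 TPM or more at 15 min of NaCl, 8 of them 100 TPM or more. Their log2 fold changes ran from 2.04 to 5.88 with a median of 2.49 (2.63 after scaling). For all 43 the 3 NaCl libraries lay above the 5 controls, where 4.26% of the transcripts tested did so, and for all 11 lower ones they lay below them, where 15.9% did. The same libraries chose the 43 and the 11, so this separation describes them and does not test them. Summed over the 43, the NaCl libraries held 3008, 2980 and 2932 TPM, against 411, 330, 473, 335 and 476 TPM in the controls. None of the 134 transcripts with a control mean of 1000 TPM or more was called.

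On the log2(TPM + 1) scale the largest rise was that of Cre01.g053000. This transcript had 336, 309 and 407 TPM in the NaCl libraries, against 4.53, 2.95, 5.19, 4.35 and 9.25 TPM in the controls. Every NaCl library held more than 30 times the level of the highest control. The means were 350.4 ± 50.8 TPM (SD, n = 3) in NaCl and 5.26 ± 2.38 TPM (SD, n = 5) in controls, a 66.7-fold ratio, and the log2 fold change was 5.88 (standard error 0.29, adjusted p = 3.74e-10), or 6.16 after scaling. The difference was 5.96 among the 6 libraries with numbers under 49 and 5.31 between NaCl replicate 3 and control replicate 5. It was the only one of the 43 with a log2 fold change above 4. As a ratio of mean TPM, Cre13.g569850 and Cre08.g360200 stood higher, with control means of only 0.135 and 0.0329 TPM.

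In absolute level, the largest gain was in Cre07.g355850. It had 688, 673 and 671 TPM in NaCl, within a few percent of each other, against 58.1, 56.7, 84.9, 43.9 and 116 TPM in controls, where the highest value was control replicate 5. Its log2 fold change was 3.30 (standard error 0.28, adjusted p = 9.50e-07). The transcripts Cre01.g015500, g1771 and Cre07.g336900 also exceeded 100 TPM in every NaCl library. Cre01.g015500 had 183, 186 and 238 TPM in NaCl and 22.7, 21.1, 28.9, 21.7 and 35.1 TPM in controls. For g1771 the levels were 149, 165 and 116 TPM in NaCl and 27.0, 17.02, 22.4, 21.5 and 13.8 TPM in controls, and for Cre07.g336900 244, 249 and 159 TPM in NaCl and 27.0, 26.8, 48.1, 23.1 and 31.8 TPM in controls. In each of them the lowest NaCl library was more than 3 times the highest control, and the log2 fold changes were 2.94, 2.78 and 2.77 (adjusted p = 9.50e-07, 2.56e-06 and 4.22e-06). Cre13.g588150 had 108, 96.3 and 106 TPM in NaCl and 25.3, 14.5, 17.4, 19.9 and 18.7 TPM in controls, with the groups apart by a log2 fold change of 2.40. The other 2 of the 8 above 100 TPM, g5380 and Cre12.g552750, are named for their level after it was seen. The first had 291, 316 and 278 TPM in NaCl and 68.4, 60.5, 80.4, 59.5 and 76.5 TPM in controls, and the second 134, 137 and 92.6 TPM in NaCl and 46.4, 19.1, 27.7, 31.2 and 22.5 TPM in controls. Their changes, 2.09 and 2.05, stood close to the threshold of 2, and without NaCl replicate 1 or 2, or control replicate 2 or 5, Cre12.g552750 was no longer called.

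A second set of early risers was nearly absent from untreated cells. Cre13.g569850 had 13.2, 16.96 and 9.36 TPM in NaCl, against 0, 0, 0.266, 0.182 and 0.226 TPM in controls, so that a transcript below 0.3 TPM in every control was above 9 TPM in every NaCl library (change 3.61 on the log2 scale, standard error 0.25, adjusted p = 8.28e-08). Cre03.g149050 had 16.7, 17.4 and 18.9 TPM in NaCl and 0.729, 0.424, 1.09, 0.248 and 0.617 TPM in controls, with a log2 fold change of 3.55 and little spread in either group. For g7629 the levels were 16.7, 20.8 and 17.6 TPM in NaCl and 0.557, 0, 0, 1.52 and 0.943 TPM in controls, 2 of which were at 0. Its log2 fold change of 3.68 (adjusted p = 8.56e-07) became 5.50 with a pseudocount of 0.1 and no longer passed the test. Cre08.g377650 was listed at 0 in all 5 controls and had 6.61, 5.98 and 3.40 TPM in NaCl, so no fold is given (adjusted p = 1.22e-06). Cre08.g360200 was at 0 in 4 of the 5 controls and at 0.165 TPM in the other, against 8.36, 8.61 and 3.90 TPM in NaCl. Cre01.g027300 had 4.40, 4.46 and 11.2 TPM in NaCl and 0, 0.297, 0, 0.346 and 0.862 TPM in controls, with its highest NaCl value in replicate 3. On the log2(TPM + 1) scale such low levels understate the fold.

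Between these extremes lay transcripts of a few TPM in controls that exceeded 10 TPM in NaCl. Cre07.g321800 had 34.7, 22.3 and 29.7 TPM in NaCl and 2.96, 1.91, 2.95, 1.34 and 3.34 TPM in controls (log2 fold change 3.11, adjusted p = 1.33e-06). Cre11.g482650 had 43.9, 37.8 and 38.4 TPM in NaCl and 2.99, 3.90, 3.87, 4.31 and 4.77 TPM in controls (log2 fold change 3.05, adjusted p = 6.56e-07). In both, the replicates of a group agreed far more closely than the groups did. Cre05.g239350 (2.88), Cre07.g353250 (2.54), Cre02.g109450 (2.52), g11530 (2.43) and Cre04.g214600 (2.55) likewise had every NaCl library at more than 3 times the highest control, with NaCl means of 34.1, 49.8, 38.5, 12.7 and 9.22 TPM against control means of 3.76, 7.72, 6.23, 1.59 and 0.807 TPM. Others were less even. Cre13.g589450 had 66.1, 74.4 and 25.1 TPM in NaCl and 8.70, 8.30, 11.6, 5.13 and 2.84 TPM in controls, with the lowest value of each group in the pair of libraries numbered 50 and 49, and Cre01.g008350 had 17.5, 19.7 and 13.4 TPM in NaCl and 2.28, 1.82, 2.76, 2.45 and 0.203 TPM in controls. Their log2 fold changes were 2.73 with an error of 0.40 (adjusted p = 7.54e-04) and 2.71 with an error of 0.34 (adjusted p = 7.52e-05), both errors being standard errors. The second was lost with a pseudocount of 0.1.

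The remaining 19 risers, g5380 and Cre12.g552750 among them, had log2 fold changes of 2.04 to 2.31 and are given by their means, named after their values were seen. Cre02.g087350 averaged 32.2 TPM in NaCl and 5.72 TPM in controls, g18091 22.2 TPM in NaCl and 3.98 TPM in controls, g1861 30.3 TPM in NaCl and 5.71 TPM in controls, and Cre13.g605750 43.9 TPM in NaCl and 9.30 TPM in controls. Of the 19, 4 (Cre06.g270400, Cre13.g571550, Cre01.g033500 and g16717) had controls under 1 TPM on average and NaCl means between 4.17 and 5.96 TPM. For g5489, with 58.8 TPM in NaCl and 13.9 TPM in controls (adjusted p = 0.00503), the call held in 2 of the 8 fits that left out a library, and for g13341, with 27.8 TPM in NaCl and 6.42 TPM in controls, in 3. Cre01.g001400 and Cre01.g009550 averaged 11.6 and 16.9 TPM in NaCl, against 1.94 and 3.06 TPM in controls.

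**Figure D2:**
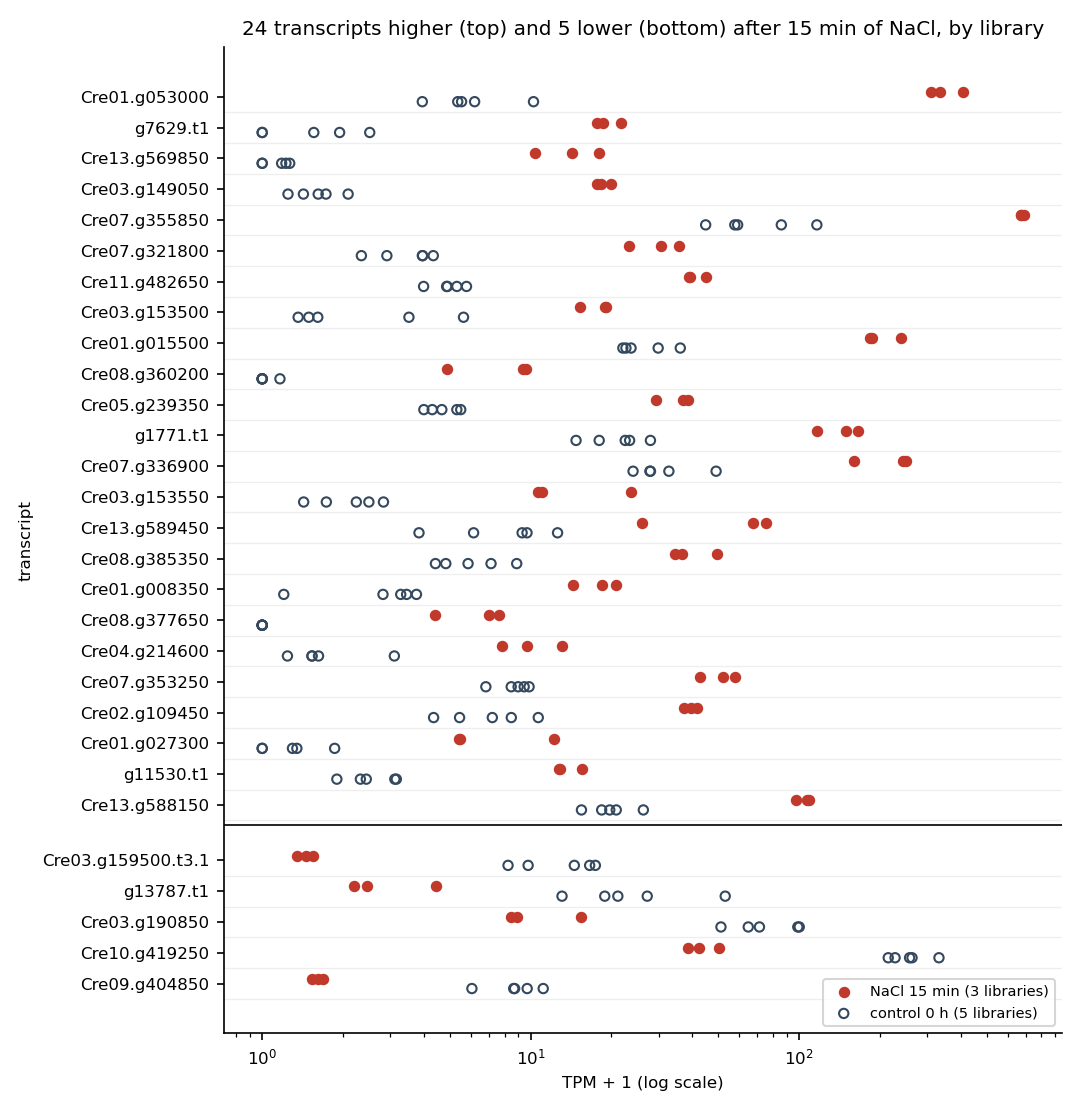
TPM + 1 on a log scale in each library for the 24 transcripts with the largest increase on the log2(TPM + 1) scale (top) and the 5 with the largest decrease (bottom) that were called under both scalings. Filled red circles are the 3 libraries at 15 min of NaCl and open circles the 5 libraries at control 0 h. Rows were picked with the groups apart, so their separation is not a result. Cre01.g053000 lay between 309 and 407 TPM in NaCl against 2.95 to 9.25 TPM in controls.

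Annotations were read only from the study's sheets on phosphoproteins and mutant screen genes. Among the 43, the only riser annotated there was Cre08.g385350. This gene is described as one of the AP2 family of plant transcription factors and is a candidate of the study's mutant screen. It had 33.6, 35.6 and 48.5 TPM in NaCl, against 6.12, 4.85, 3.42, 3.83 and 7.88 TPM in controls. The highest value of each group was again in the pair of libraries numbered 50 and 49, and the lowest NaCl library held more than 4 times the highest control. Its means were 39.2 ± 8.09 TPM (SD, n = 3) in NaCl and 5.22 ± 1.82 TPM (SD, n = 5) in controls, which differed by 2.72 on the log2 scale (standard error 0.28, adjusted p = 7.43e-06) or by 3.004 after scaling, and it was called with each library left out in turn.

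Scaling added 24 transcripts to the risers, with log2 fold changes of 1.68 to 2.74 as deposited and 2.03 to 3.09 after scaling. Among them was Cre12.g500550, described as a calcium-activated chloride channel regulator, a member of a family that modulates anion channels in animals. It had 96.2, 104 and 97.4 TPM in NaCl, against 26.9, 27.7, 44.2, 23.5 and 26.4 TPM in controls. The groups were apart, with control replicate 3 nearest, and the change was 1.74 as deposited (adjusted p = 3.25e-04), short of the threshold on size, and 2.09 after scaling (adjusted p = 3.31e-05). Cre16.g679550, was named after its values were seen. It had 302, 318 and 94.2 TPM in NaCl and 44.8, 54.7, 57.6, 33.2 and 5.01 TPM in controls. Both groups were lowest in the pair of libraries numbered 50 and 49, and its adjusted p was 0.0915 as deposited and 0.00840 after scaling, with log2 fold changes of 2.74 and 3.09.

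Annotated genes with smaller changes included enzymes, kinases and transport proteins, all named after their values were seen. INO1 (Cre03.g180250), the synthase that begins the making of inositol, had 348, 359.6 and 327 TPM in NaCl and 242, 122, 185, 164 and 141 TPM in controls. These groups did not overlap, and the change was 1.05 as deposited (adjusted p = 0.0169) and 1.41 after scaling (adjusted p = 2.72e-04). A gene described as a WNK protein kinase, a family that controls ion transport in animals, Cre01.g040200, had 38.4, 41.5 and 42.3 TPM in NaCl and 32.4, 22.2, 31.6, 21.9 and 26.8 TPM in controls. Its change was 0.59 as deposited (adjusted p = 0.146) and 0.94 after scaling (adjusted p = 0.00295), so it passed the test of any size only after scaling. The same held for Cre14.g620850, which carries a helix-loop-helix DNA-binding domain (0.61, adjusted p = 0.126, and 0.97, adjusted p = 0.00213). In the other direction, Cre17.g700750, related to the bacterial inner membrane protein YaaH, fell to 769, 700.4 and 859.7 TPM in NaCl, against 1757, 1730.1, 2765, 1440.4 and 2909.5 TPM in controls. The log2 fold change was -1.40 (adjusted p = 0.00330), with -1.03 and an adjusted p of 0.0280 after scaling. CDKB1 (Cre08.g372550), a plant-specific cyclin-dependent kinase, had 20.2, 20.9 and 18.6 TPM in NaCl and 63.7, 38.4, 61.7, 37.5 and 33.6 TPM in controls, a change of -1.15 (adjusted p = 0.0153) or -0.79 after scaling (adjusted p = 0.00652).

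The study names more genes than the 17 candidates and markers picked here, which leave out KCN11 and PAT among others. The SPL gene was sought under an identifier other than that in the study's text and had no tested transcript. Of the 17 picked, 15 had a tested transcript, and the AP2 gene alone was called. The other 14 had log2 fold changes from -0.82 to 0.50 as deposited, with adjusted p of 0.111 or more. NHX (Cre01.g034150), a sodium/proton exchanger, had 6.96, 7.07 and 5.48 TPM in NaCl and 13.3, 7.57, 10.5, 8.18 and 7.59 TPM in controls. Its groups did not overlap but the change of -0.45 (adjusted p = 0.287) was near the median of all transcripts and came to -0.12 after scaling. The sodium/potassium ATPase NAK1 (Cre06.g263950) had 28.3, 29.5 and 19.97 TPM in NaCl and 25.1, 16.1, 22.2, 18.6 and 13.4 TPM in controls, with overlapping groups and a change of 0.43 (adjusted p = 0.311) or 0.78 after scaling (adjusted p = 0.0179). INP5 (Cre12.g530050), a phosphoinositide phosphatase, stood at 0.50 (adjusted p = 0.264) and 0.81 after scaling (adjusted p = 0.0177). Among the kinases, MAPKK (Cre08.g384900) had 27.6, 23.7 and 14.5 TPM in NaCl and 25.7, 16.5, 32.9, 17.3 and 6.52 TPM in controls, a difference of 0.26 (standard error 0.40, adjusted p = 0.684), while DYRKP (Cre07.g337300) and CDPK (Cre03.g153150) stood at 0.10 and -0.38 (adjusted p = 0.841 and 0.346). The starch enzymes SBE (Cre10.g444700) and STA2 (Cre17.g721500) stood at -0.15 and -0.19 (adjusted p = 0.723 and 0.645). The MYB gene (Cre14.g609350), the BZIP gene (Cre12.g557300), NAP (Cre03.g172950), described as a centromere and microtubule binding protein, and REMORIN (Cre16.g661700), a marker of the secretory pathway, had log2 fold changes of -0.37, -0.52, -0.63 and -0.56, with adjusted p of 0.365, 0.204, 0.130 and 0.217. The actin-binding protein profilin, PRF (Cre10.g427250), was at -0.22 (adjusted p = 0.636) and Cre12.g524950, described as a GTP-binding protein, at -0.82 (adjusted p = 0.111).

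Few members of the gene lists passed the test. The lists by function, such as kinases or ciliary genes, hold only genes from the study's phosphoprotein and mutant screen sheets or its candidates. They are parts of those classes, overlap the lists of those sheets, and do not describe the classes as a whole. Of 421 transcripts for proteins with a phosphopeptide changed more than 1.5-fold by osmotic stress in the study, 2 were higher and 1 lower with an adjusted p under 0.01, and 11 higher and 1 lower after scaling. Their median log2 fold change was -0.28, or 0.04 after scaling, beside -0.31 and -0.03 for all transcripts. The 27 whose phosphopeptides changed more than 2-fold held 0 such transcripts in either direction under both scalings by limma, with medians of -0.30 and -0.02. At an unadjusted p under 0.05 this list had 0 higher and 4 lower as deposited, and 4 higher and 1 lower after scaling. Over all transcripts that level was met by 5% higher and 20.5% lower as deposited, and by 12% higher and 9.38% lower after scaling. Of 48 transcripts of the mutant screen, the AP2 gene was the only one to pass (medians -0.32 and -0.04). Among 46 kinases 0 passed as deposited (2 higher and 5 lower at an unadjusted p under 0.05), and 1 higher and 1 lower passed after scaling, with 9 higher and 2 lower unadjusted (medians -0.25 and 0.05). Among 25 ciliary transcripts 0 passed as deposited (2 higher and 2 lower unadjusted) and 1 higher after scaling (7 higher and 2 lower unadjusted), with medians of 0.00 and 0.32, above those of all transcripts. The 16 transport genes had medians of -0.30 and 0.01 with Cre12.g500550 the only one to pass, and the 13 genes of RNA processing and the ribosome had medians of -0.16 and 0.19 with 0 passing (0 unadjusted as deposited, 1 higher after scaling). Of 6 phosphatases (medians 0.29 and 0.63), 0 passed as deposited (1 higher unadjusted) and 1 after scaling (3 higher unadjusted), and of 6 DNA-binding regulators (-0.10 and 0.17) only the AP2 gene passed. The latter list was formed by words in the annotations that did not cover the helix-loop-helix domain. It therefore leaves out Cre14.g620850, which passed after scaling. Over all transcripts, 1.35% passed as higher and 1.16% as lower with the TPM as deposited, and 3.58% and 0.608% after scaling, and most lists are too short to hold more than 1 at such rates.

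At the threshold of 2 fewer transcripts were called lower than higher. At any size, 159 were lower and 184 higher at an adjusted p under 0.01, and the order depended on the fit, with 565 lower and 316 higher under the library series block, 664 lower and 334 higher at an adjusted p under 0.05, and 83 lower and 489 higher after scaling. Cre10.g419250, the most abundant of those called lower, had 49.5, 37.5 and 41.3 TPM in NaCl, against 214, 227, 263, 257 and 331 TPM in controls. The highest NaCl library held less than 0.25 of the lowest control, and the log2 fold change was -2.56 (standard error 0.24, adjusted p = 1.78e-06) or -2.20 after scaling. Cre03.g190850 had 7.90, 7.48 and 14.4 TPM in NaCl and 98.0, 50.2, 70.2, 63.7 and 99.2 TPM in controls (-2.83, adjusted p = 6.98e-06). For g13787 the levels were 1.202, 1.45 and 3.44 TPM in NaCl and 52.1, 12.1, 17.9, 26.2 and 20.1 TPM in controls (-3.04, adjusted p = 1.44e-04). Cre09.g404850 was below 1 TPM in every NaCl library, at 0.685, 0.619 and 0.528 TPM, against 7.72, 5.04, 10.1, 8.71 and 7.65 TPM in controls (-2.43, adjusted p = 1.22e-05). The rule that named these required the groups to be apart. The other 6, Cre04.g222800, Cre17.g728200, Cre09.g402200, Cre10.g466500, Cre11.g477733 and g4719, named after their values were seen, changed by -2.35 to -2.001 as deposited and by -1.99 to -1.68 after scaling, which left them short of the threshold on size, with adjusted p of 0.00426 or less. The most abundant of these 6, Cre04.g222800, averaged 11.01 ± 3.44 TPM in NaCl (SD, n = 3) and 63.1 ± 26.4 TPM in controls (SD, n = 5).

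The largest decrease was in 1 of the 5 transcripts listed for Cre03.g159500. The transcript t3.1 had 0.458, 0.551 and 0.353 TPM in NaCl, against 15.6, 8.79, 13.6, 16.4 and 7.24 TPM in controls (-3.14, adjusted p = 1.78e-06). Reads shared by transcripts of a gene can be divided among them in ways TPM do not show. Summed over the 5 transcripts, the gene had 5.09, 7.49 and 3.14 TPM in NaCl and 29.7, 20.5, 28.9, 34.3 and 20.2 TPM in controls, so the gene total was lower in every NaCl library as well. Transcript t1.2 averaged 2.83 TPM in NaCl and 12.01 TPM in controls, whereas t2.1 averaged 1.15 TPM in NaCl and 0.445 TPM in controls.

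Several risers were neighbours on the chromosome. Of the genes of the 43, 32 could be placed in the gene order of RefSeq (assembly v5.5, used for order only), and 3 pairs stood next to each other: Cre03.g153500 and Cre03.g153550, Cre05.g239350 and Cre05.g239400, and Cre06.g286850 and Cre06.g286900. Risers with a g identifier could not be placed. Among them are g11529 and g11530, whose numbers are consecutive, so pairs may have been missed. Of 42 tested genes that flank a riser, 6 were themselves called higher (14.3%), where 0.315% of all transcripts were. These 6 are the members of the 3 pairs, each counted as its partner's neighbour, and not further genes. Each flanking gene was taken by its transcript with the lowest adjusted p, so the rates are of unlike units. The 36 others had a median log2 fold change of -0.04. The pair on chromosome 3 had 18.1, 14.2 and 18.0 TPM (Cre03.g153500) and 10.01, 9.65 and 22.6 TPM (Cre03.g153550) in NaCl, against 0.361, 4.62, 2.52, 0.491 and 0.611 TPM and 0.734, 0.427, 1.83, 1.498 and 1.24 TPM in controls. Neither overlapped its controls, although control replicate 2 was high for Cre03.g153500 and NaCl replicate 3 for Cre03.g153550. Their log2 fold changes were 2.94 (adjusted p = 4.46e-04) and 2.75 (adjusted p = 2.25e-05). The partners Cre05.g239350 and Cre05.g239400 changed by 2.88 and 2.05, and Cre06.g286850 and Cre06.g286900 by 2.25 and 2.12. After scaling a further pair appeared, Cre08.g377650 with Cre08.g377700. Of 71 flanking genes 8, again the members of the pairs, were then called (11.3%, where 0.491% of all transcripts were). The 3 partners outside the 24 largest rises, Cre08.g377700 and g11529 were named for their position or number. Whether the genes of a pair overlap was not examined here.

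The early risers were next compared with the same time point of mannitol. The treatments, 100 mM NaCl and 300 mM mannitol, differ in solute and in concentration, so this contrast cannot tell salt from osmotic strength. At 15 min of mannitol the mean of 33 of the 43 risers lay within or below the range of the 9 untreated libraries. The matching share over all transcripts was not counted, so the 33 are a description only. In 3 of the 43 all mannitol libraries already exceeded all 9 untreated libraries, where 0.322% of the transcripts tested did so. The control 0 h libraries among these also chose the 43, so this count too is a description. Cre01.g053000 had 15.2, 5.64 and 7.52 TPM at 15 min of mannitol, Cre07.g355850 69.2, 55.4 and 85.9 TPM and the AP2 gene 5.02, 5.18 and 6.07 TPM, against the NaCl levels above. Only the first had a mannitol library above its highest control 0 h library. In the direct test of NaCl over mannitol at 15 min, the log2 differences were 5.17 (standard error 0.36, adjusted p = 3.76e-10) for Cre01.g053000, 3.27 (standard error 0.35, adjusted p = 1.28e-06) for Cre07.g355850 and 2.63 (standard error 0.32, adjusted p = 5.67e-06) for the AP2 gene.

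For all 43 the 3 NaCl libraries lay above the 3 mannitol libraries, where 7.41% of all transcripts did so, and 39 had an adjusted p under 0.01 (1.41% of all transcripts did so and were higher), 32 of them with a log2 difference above 2 (0.44%). After scaling 35 had an adjusted p under 0.01 and 8 did not, and 33 of the 35 exceeded 2 (0.571%). The share of all transcripts that matches the 35 is not given here. These counts describe the transcripts and do not test them, because the NaCl libraries that chose the 43 enter this comparison too. Without mannitol replicate 2 the 32 became 17. The 4 that did not pass with the TPM as deposited were g7629, Cre03.g153500, g11529 and Cre13.g571550, the last 2 named because the count is small. For g7629 the mannitol libraries had 10.9, 0.436 and 4.67 TPM, a spread from control level to more than 10 TPM, and the difference of 2.07 had a standard error of 0.71 (adjusted p = 0.233). Cre03.g153500 had 12.6, 5.09 and 3.03 TPM in mannitol, highest in the same replicate 1 (difference 1.35, adjusted p = 0.0487). The 3 transcripts above all untreated libraries at 15 min of mannitol were Cre03.g149050 (6.16, 3.14 and 3.19 TPM), Cre08.g377650 (0.622, 0.949 and 2.31 TPM) and Cre13.g571550 (1.81, 1.07 and 1.05 TPM). In Cre03.g149050 NaCl still stood 1.90 higher on the log2 scale (adjusted p = 6.42e-04).

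**Figure D3:**
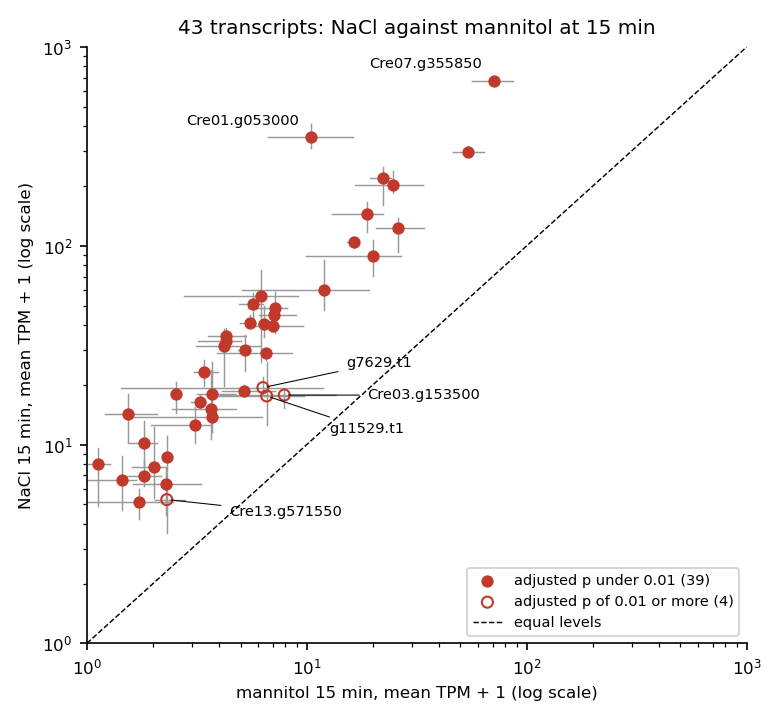
Mean TPM + 1 at 15 min of NaCl (y axis) against 15 min of mannitol (x axis), both on log scales, for the 43 transcripts called higher at 15 min of NaCl, with lines from the lowest to the highest of the 3 libraries of each group. Filled points (39) had an adjusted p under 0.01 in the direct test with the TPM as deposited and open points (4) did not. All points lie above the dashed line of equal levels.

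Of the 11 transcripts called lower, 7 were also lower in NaCl than in mannitol with an adjusted p under 0.01 (0.227% of all transcripts were), 4 of them by more than 2 on the log2 scale (0.044%). Without mannitol replicate 2 or 3 these 4 became 0 and 1. Cre10.g419250 had 134, 217 and 229 TPM in mannitol and differed by -2.12 (adjusted p = 3.10e-04). The transcript Cre03.g159500.t3.1 did not pass this test, and stood at 0.774, 2.17 and 0.192 TPM in mannitol (difference -0.38, standard error 0.30, adjusted p = 0.560), all below the lowest control of 7.24 TPM.

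Within the NaCl course, 9 of the 43 had their highest mean at 15 min, 30 at 30 min, 2 at 6 h and 2 at 24 h (6, 34, 1 and 2 after scaling). In the test of NaCl 30 min over NaCl 15 min, 11 of the 43 were higher with an adjusted p under 0.01 (2.55% of all transcripts) and 1 lower (5%), and after scaling 16 were higher (6.17%) and 0 lower (1.39%). The 43 differed by -1.16 to 1.96, so none was called at a difference above 2 in either direction (0.044% higher and 0.147% lower over all transcripts), and after scaling 1, Cre13.g569850, was called higher (0.264%) and 0 lower (0.0586%). These too share the NaCl 15 min libraries with the choice of the 43. Cre13.g569850 had 59.4, 54.2 and 45.7 TPM at 30 min, a further log2 difference of 1.96 (standard error 0.22, adjusted p = 0.00115), and Cre11.g482650 had 115, 104 and 125 TPM (1.49, adjusted p = 0.00115). For Cre01.g053000, at 511, 486 and 698 TPM, the step was 0.68 (adjusted p = 0.0455), or 1.09 after scaling (adjusted p = 0.00424). The AP2 gene, at 49.8, 49.3 and 86.96 TPM, differed by 0.61 (adjusted p = 0.0836) and did not pass the test.

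Of the 9 with their highest NaCl mean at 15 min, 6 kept that place after scaling, namely Cre03.g149050, Cre03.g153500, Cre03.g153550, Cre08.g377650, Cre13.g571550 and Cre03.g152600. At 15, 30 and 60 min of NaCl Cre03.g149050 averaged 17.7 ± 1.12 TPM, 9.21 ± 4.10 TPM and 2.98 ± 1.83 TPM (SD, n = 3 each). By 4 h it averaged 0.713 ± 0.111 TPM (SD, n = 3), near its level of 0.622 ± 0.320 TPM at control 0 h (SD, n = 5). Its step to 30 min was -0.95 (adjusted p = 0.0293). Cre03.g152600, named because it was the only riser lower at 30 min with an adjusted p under 0.01, averaged 2.85 TPM at 30 min and 7.71 TPM at 15 min (-1.16, adjusted p = 0.00735, and 0.0312 after scaling). The other 5 had differences of -0.95 to -0.46 and did not pass the test.

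The later courses differed among the 43. At the 6 successive times from 15 min to 24 h of NaCl, 42, 41, 32, 28, 27 and 19 of the 43 had all 3 NaCl libraries above all 9 untreated ones (3.95%, 8.39%, 8.96%, 6.42%, 6.19% and 4.83% of all transcripts). After scaling these were 42, 43, 35, 32, 31 and 29 (8.07%, 17.7%, 20.9%, 12.8%, 12.3% and 12.9%). The untreated libraries include those of control 0 h, which chose the 43 together with the NaCl libraries at 15 min. These counts, and those of mannitol below, therefore describe the 43 and do not test them. The AP2 gene averaged 4.43 ± 1.44 TPM at 60 min of NaCl, within the range of control 0 h, against 62.0 ± 21.6 TPM at 30 min. For g5380 the NaCl means were 452 ± 35.5 TPM at 30 min, 38.7 ± 7.83 TPM at 60 min and 309 ± 117 TPM after 4 h. Cre01.g053000 averaged 252, 288 and 281 TPM after 60 min, 4 h and 24 h of NaCl, and Cre11.g482650 82.9, 97.6 and 92.6 TPM. Cre07.g321800 had its highest mean last, with 28.9 ± 6.21 TPM at 15 min, 106 ± 26.5 TPM after 4 h and 511 ± 130.0 TPM after 24 h (SD, n = 3 each), against 2.41 ± 2.44 TPM in untreated cells at 24 h (SD, n = 4). In mannitol 4 of the 43 had their highest mean at 30 min and 39 at 60 min (3 and 40 after scaling), and 35 at 30 min and 43 at 60 min had all mannitol libraries above all untreated ones (3.14% and 12.1% of all transcripts). Cre01.g053000 reached 1963 ± 715 TPM and Cre07.g355850 1901 ± 299 TPM at 60 min of mannitol (SD, n = 3 each). At 4 h of mannitol 14 of the 43 remained above all untreated libraries (2.01% of all).

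**Figure D4:**
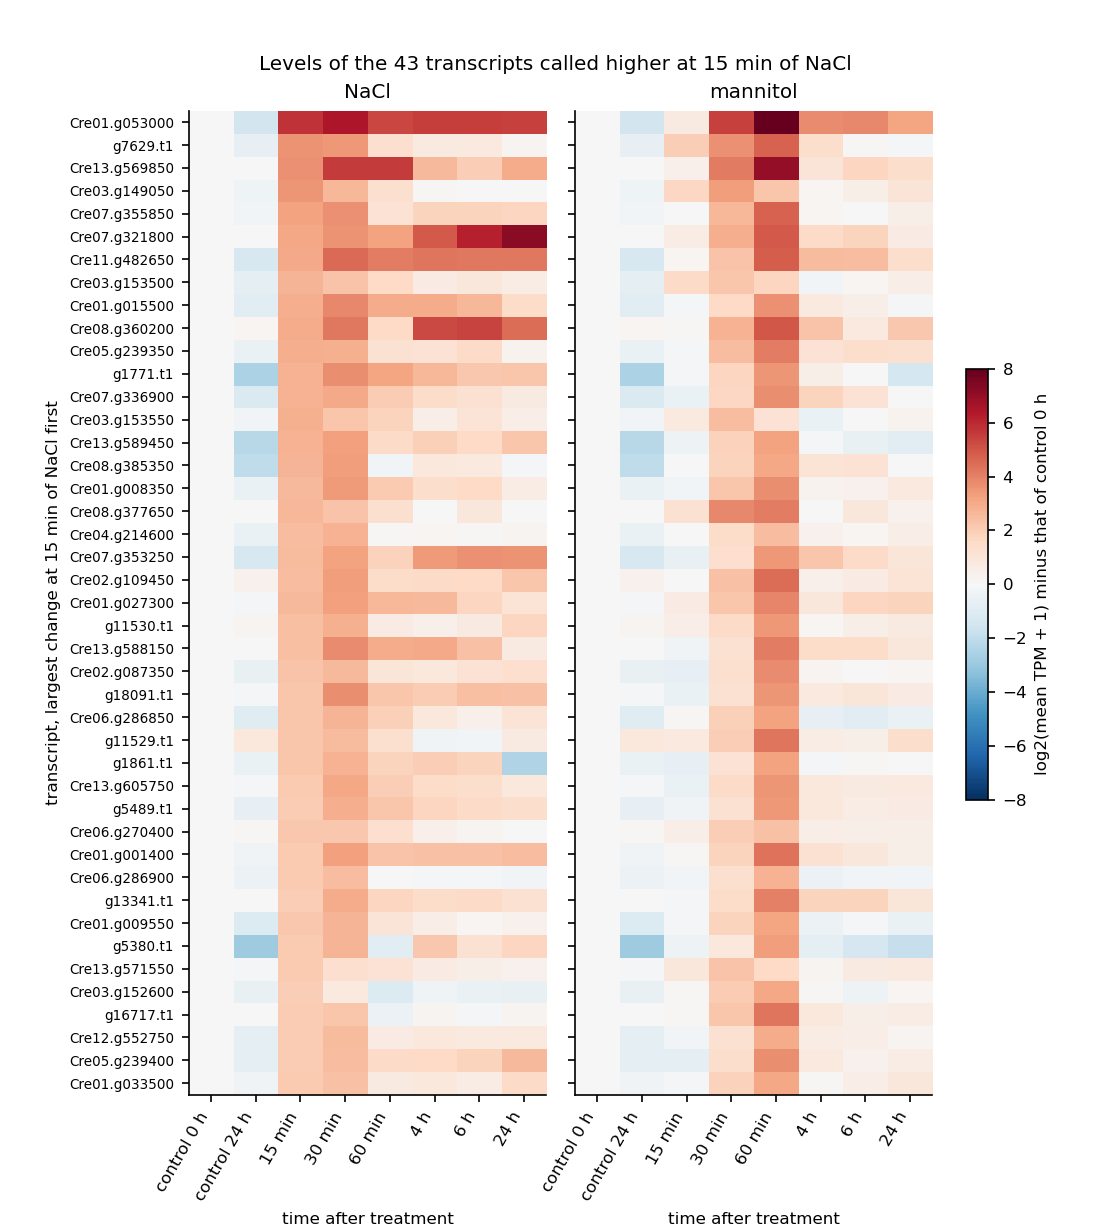
Colour scale of log2(mean TPM + 1) minus that of control 0 h for the 43 transcripts called higher at 15 min of NaCl (rows, largest change first) in untreated cells and at 15 min to 24 h of NaCl (left) and mannitol (right). Red is above and blue below control 0 h. The mannitol column at 15 min is pale for most rows, and 39 rows are at their highest mannitol mean at 60 min.

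**Figure D5:**
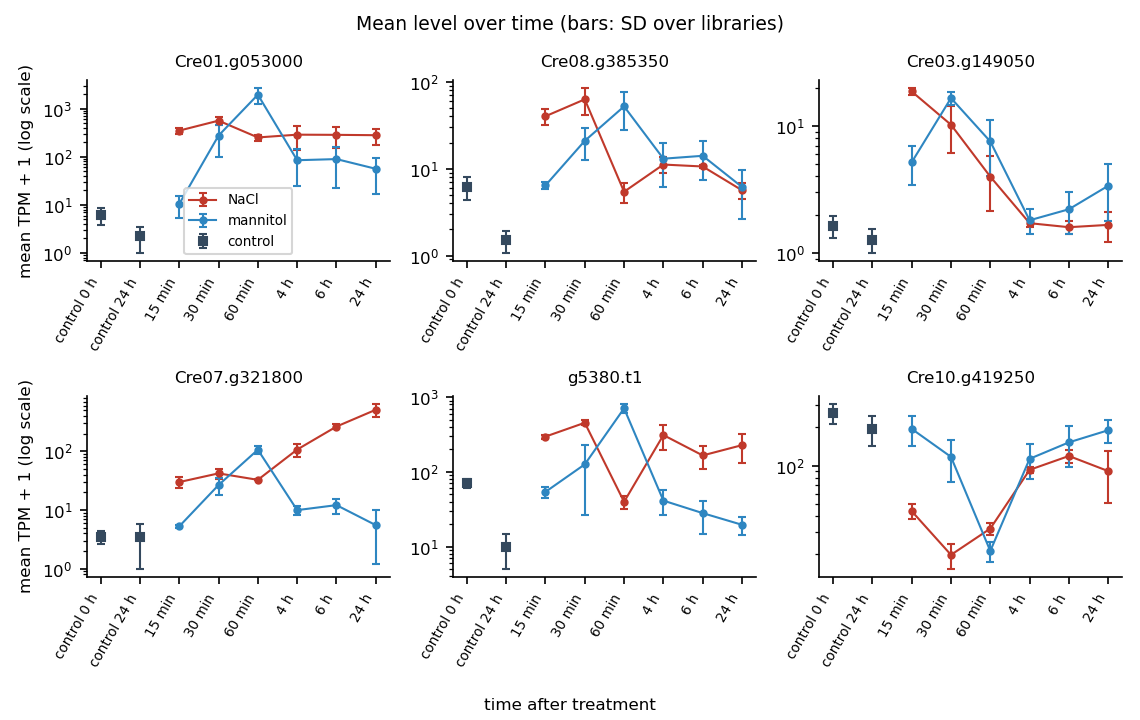
Mean TPM + 1 (log scale, bars are the SD over 3 libraries, or 5 and 4 for control 0 h and 24 h) of 5 risers and of the decreasing Cre10.g419250 over time in NaCl (red), mannitol (blue) and untreated cells (squares). The AP2 gene Cre08.g385350 is at 4.43 TPM at 60 min of NaCl, Cre07.g321800 reaches 511 TPM at 24 h and Cre10.g419250 is lowest at 30 min of NaCl, at 18.8 TPM.

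In 2 comparisons that share no library with the test that chose the 43, all 43 had a positive log2 fold change. The share of positive changes over all transcripts was not counted, and the filter on level used all 45 libraries, these among them. In NaCl 30 min against control 24 h, 40 of the 43 were called higher, where 3.18% of all transcripts were, and 41 in mannitol 60 min against control 24 h, where 5.3% were. Over the 43 the median log2 fold changes were 3.47 and 4.23, beside -0.33 and -0.24 over all transcripts. After scaling 41 and 41 were called (4.74% and 7.16% of all). Cre01.g053000 changed by 8.14 (adjusted p = 2.58e-07) in the first and 9.89 (adjusted p = 4.14e-09) in the second, and the AP2 gene by 5.38 (adjusted p = 5.78e-07) and 5.03 (adjusted p = 1.91e-07). The AP2 gene averaged 0.505 ± 0.432 TPM in untreated cells at 24 h (SD, n = 4), a lower reference than the mean at 0 h given above. Of the 11 lower transcripts 8 were called lower in NaCl 30 min (1.59%) and 6 in mannitol 60 min (2.53%), or 7 (0.952%) and 6 (1.59%) after scaling. Both comparisons use the same control 24 h libraries, and by the study's methods samples of a treatment at different times came from the same flask, so NaCl at 30 min is not a culture separate from NaCl at 15 min.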

How the data were processed

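The authors sequenced polyadenylated RNA and, per the labels and the study's methods, aligned reads with BWA to the Chlamydomonas genome and annotation release 5.6. The deposited table holds TPM per transcript, normalised by the authors so that each of 45 libraries sums to 1000000; versions of the tools are not given in the sources used here, and no counts were used. Groups came from the labels. Transcripts with 1 TPM or more in 3 or more of the 45 libraries were tested on log2(TPM + 1) with limma 3.58.1 in R 4.3.3 (eBayes with trend and robust options, only the 2 groups compared, Benjamini-Hochberg adjustment over 13651 transcripts). Called means an adjusted, two-sided p under 0.01 together with a difference above 2 on the log2 scale. Each fit was repeated after median-ratio scaling over transcripts above 0 in all libraries. Fold ratios are of mean TPM. The study states that its RNA-seq replicates were biological and were grown on separate days, while the labels do not tie a library to a day. The script was tested on simulated data.

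Named transcripts are the 24 largest increases and up to 8 largest decreases called under both scalings with groups apart. To these were added every called member of the gene lists and the candidates picked from the study. Any other was chosen after its values were seen. The members and lists were chosen with earlier results of these data known. Annotations came from the study's sheets on phosphoproteins and mutant screen genes and from candidates named in its text (657 genes, 506 in the table). The other sheets were not read for annotation. Symbol-based lists and promoter motifs were not run, as the reference used gives no symbols or sequences. Alternatives covered the pseudocount, filter, normalization, thresholds, controls, blocks and each library left out.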

Additional observations from a re-analysis of the deposited data

Results flagged for a closer look

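In 3 named transcripts a single control library lay far from the other 4, by Dixon's criterion on a group of 5, which chance alone meets in about 1 of 20 groups. All transcripts named by rule were screened, so chance alone would give some such cases. Cre08.g360200 had 0.165 TPM in control replicate 4 and 0 in the others, where any value above 0 meets the criterion. Cre04.g214600 had 2.11 TPM in control replicate 5, and Cre12.g500550 had 44.2 TPM in control replicate 3. All NaCl libraries lay above these values.

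The response at 15 min differed between the stresses in a direct test, with 60 transcripts higher and 6 lower in NaCl than in mannitol by limma. Without mannitol replicate 2 these counts were 22 and 0, with 8 transcripts lower by more than 2 on the log2 scale at an unadjusted p under 0.05.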

How the results depend on the processing

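All 24 named risers and 5 named decreases kept their direction under every alternative that tested them, and 3 risers (g7629, Cre03.g153500 and Cre01.g008350) lost the call with a pseudocount of 0.1. The 43 and 11 calls became 66 and 50 with a pseudocount of 0.1, 67 and 5 with median-ratio scaling, 68 and 6 with quantile normalization, 183 and 159 with a threshold of 1 on the log2 scale, and 67 and 6 with the library series as a block plus scaling. The last, the fit of the 6 lower-numbered libraries (47 and 15) and that without control replicates 1 and 3 (45 and 8) were chosen after seeing the data. With each library left out they ranged from 38 to 45 and from 9 to 16. Same-numbered libraries correlated in their deviations at 0.02, 0.05 and -0.21, which gave no sign of pairing by number. With deviations taken within groups this small, such correlations cannot exclude pairing. With the replicate block the counts were 41 and 13, and NaCl replicate 3 correlated best with control replicate 5 (0.47), not with its own number.

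NaCl against mannitol at 15 min gave 22 to 71 higher and 0 to 11 lower with a library left out, the lowest of both without mannitol replicate 2. NaCl 30 min against 15 min gave 36 higher and 8 lower after scaling, against 6 and 20 as deposited, and 14 to 34 lower with a library left out. After scaling, 130 were lower in NaCl 30 min and 217 in mannitol 60 min against control 24 h, where the TPM as deposited gave 217 and 345. The cause of these shifts was not tested. Depth is unknown, so no floor can be set for values at 0.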
